A study of Mus musculus with 24 samples.

Results

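The Snrpn imprinted domain on mouse chromosome 7 was followed through 6 genes, Snrpn, Snurf, Ndn, Magel2, Mkrn3 and Ube3a, of 21530 genes with a gene-end window in the series. Each gene was read at the gene end with more CpGs, over 1000 bp on either side, as methylated calls over all calls; all 6 could be measured. Their 12 gene ends gave 11 distinct windows, because Snrpn and Snurf share their 3' end. DNA had been oxidised before bisulfite conversion, so that a methylated call reports 5-methylcytosine and leaves out 5-hydroxymethylcytosine. The cells were mouse induced pluripotent stem (iPS) cells grown on feeder cells: a wild-type line and 2 knock-in clones, N5 and N9, in which doxycycline induces the microRNA miR-203. The labels put wild-type and clone cells of day 10 and day 25 after doxycycline; those of embryoid bodies name it for the clones and not for the wild type. The 4 stages were t=0, before doxycycline, day 10, reached 5 days after a pulse of 5 days, day 25, reached 20 days after it, and day 32, when the cells had been aggregated in hanging drops to differentiate as embryoid bodies. Stages are always given in that order. The series design gives the embryoid bodies 7 days of aggregation and the wild-type label gives 10. Each stage had 1 wild-type library and 1 library of each clone, so that n = 1 for the wild type and n = 2 for the clones, 12 libraries in all, and p-values measure only the spread between 2 clones. A single wild-type line stands for its genotype, and its 2 columns per stage, headed rep1 and rep2, were counted as 1 library.

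Imprinted genes are used from only one parental copy, and the copies are told apart by DNA methylation set in the egg or in sperm. In this domain the mark is set in the egg at the start shared by Snurf and the main Snrpn transcript, the imprinting centre, so that the maternal copy is methylated and silent. Snrpn encodes a spliceosomal protein and Snurf a small peptide read from the same transcript. Ndn (necdin), Magel2 and Mkrn3 (a makorin RING finger gene) lie far upstream, are likewise used from the paternal copy, and gain methylation on the maternal copy later in development. Ube3a, a ubiquitin ligase gene, is used from the maternal copy in neurons, where the long antisense transcript Snhg14 silences the paternal one; its own promoter is unmethylated on both copies. Loss of the paternal products underlies Prader-Willi syndrome and loss of maternal UBE3A underlies Angelman syndrome.

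The start sequences below show how the members differ in CpGs, the only sites read. They are from RefSeq, build GRCm38.p6, run from 220 bases before the start to 30 after it, 5' to 3' on the strand of the gene, and have CpGs in capitals.
Snrpn and Snurf shared start, chr7:60005170-60005419, minus strand: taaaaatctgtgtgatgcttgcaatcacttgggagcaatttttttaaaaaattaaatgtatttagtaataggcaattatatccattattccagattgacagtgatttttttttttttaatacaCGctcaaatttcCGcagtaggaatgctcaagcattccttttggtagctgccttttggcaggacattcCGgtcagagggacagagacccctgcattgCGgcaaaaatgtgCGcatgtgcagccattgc
Snrpn far upstream start, chr7:60450148-60450397, minus strand: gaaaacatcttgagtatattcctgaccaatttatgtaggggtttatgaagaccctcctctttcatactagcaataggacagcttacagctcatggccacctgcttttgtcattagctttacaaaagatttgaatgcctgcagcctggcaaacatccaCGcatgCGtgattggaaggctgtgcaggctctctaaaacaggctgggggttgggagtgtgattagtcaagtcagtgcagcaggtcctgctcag
Ndn, chr7:62348057-62348306, plus strand: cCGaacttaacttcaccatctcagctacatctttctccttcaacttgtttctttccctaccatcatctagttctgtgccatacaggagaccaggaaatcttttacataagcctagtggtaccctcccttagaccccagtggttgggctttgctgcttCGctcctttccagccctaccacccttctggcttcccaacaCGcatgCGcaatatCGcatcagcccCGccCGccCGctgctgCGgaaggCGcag
Magel2, chr7:62376759-62377008, plus strand: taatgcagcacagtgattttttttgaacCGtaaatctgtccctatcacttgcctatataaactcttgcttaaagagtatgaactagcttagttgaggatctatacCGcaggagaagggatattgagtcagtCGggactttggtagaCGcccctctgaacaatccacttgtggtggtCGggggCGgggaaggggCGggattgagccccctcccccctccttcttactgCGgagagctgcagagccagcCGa
Mkrn3, chr7:62420124-62420373, minus strand: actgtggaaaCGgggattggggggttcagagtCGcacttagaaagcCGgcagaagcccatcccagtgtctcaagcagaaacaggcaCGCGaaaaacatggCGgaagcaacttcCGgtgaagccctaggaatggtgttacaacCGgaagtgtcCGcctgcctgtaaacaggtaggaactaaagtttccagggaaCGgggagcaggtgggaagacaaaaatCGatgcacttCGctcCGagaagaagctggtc
Ube3a, chr7:59228530-59228779, plus strand: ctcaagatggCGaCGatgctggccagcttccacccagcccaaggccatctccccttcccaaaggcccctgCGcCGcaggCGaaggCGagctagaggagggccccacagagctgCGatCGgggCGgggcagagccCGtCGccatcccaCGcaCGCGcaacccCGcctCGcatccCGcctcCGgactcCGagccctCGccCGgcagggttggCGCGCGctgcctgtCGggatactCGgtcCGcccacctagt
The CpGs numbered 5 at the shared start, 2 at the far upstream start, 10 at Ndn, 9 at Magel2, 13 at Mkrn3 and 27 at Ube3a. All 88 CpGs in the 300-base RefSeq promoters of the members stood at the same positions in the deposited table. That count covers 9 start entries, the shared start being entered for both Snrpn and Snurf. The hexamer TGCCGC, bound by the imprint-keeping factor ZFP57 when methylated, was searched on both strands, as TGCCGC and GCGGCA. One match, GCGGCA, lay across the shared Snrpn-Snurf start, from base -2 to base 4, and the promoters of Ndn, Magel2, Mkrn3, Ube3a and the other 3 Snrpn starts had none of these letters in the window. The hexamer is present in 3813 of 32851 RefSeq promoters of that length (11.6%).

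The libraries held 102896335 to 191210205 calls at CpGs, or 4.70 to 8.74 per listed CpG. Coverage in the domain, taken as chromosome 7 from 59 to 63 Mb, was 0.436 to 0.507 of that of the whole chromosome in each library, and chromosome 7 stood at 0.986 to 1.02 of other autosomes. The genome-wide methylation level was 60.7%, 61.4%, 61.1% and 69.6% over the wild-type stages. In the clones it was 64.8% ± 0.0881, 60.4% ± 0.493, 48.1% ± 0.467 and 71.5% ± 0.518 (SD, n = 2), so that day 25 was the low point. Coverage of the first 3000000 bp of chromosome Y was 0.0389 and 0.0407 of that of chromosome 5 for the clones before doxycycline, and 0.0110 and 0.0129 for them on day 25. It was at most 0.00189 in the other 8 libraries. Coverage of chromosome X over autosomes was 0.527 (N5) and 0.528 (N9) at t=0, against 0.660 in the wild type. At day 10 it was 0.695 and 0.696 against 0.669, and at day 25 it was 0.611 and 0.627 against 0.677. In embryoid bodies it was 0.646 and 0.520 against 0.611. The ends of 20 fibroblast genes had median levels of 6.78% to 12.8% in the cell libraries and 21.8% to 26.2% in embryoid bodies. The ends of 10 pluripotency genes had medians of 1.39% to 14.0%, and the clones on day 25 were the lowest, at 3.23% and 1.39% against 13.0% in the wild type. N5 was sequenced on another flow cell than all wild-type and N9 libraries, except at day 10. The genome level and the fibroblast and pluripotency gene levels move with stage. Chromosome Y coverage, chromosome X coverage and flow cell move with clones against wild type at t=0 and day 25. The flow cell does so in embryoid bodies as well. The part of all these measures in the results was not tested beyond the fit with a flow cell term.

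At the Snrpn-Snurf start the clones were measured lower than the wild type at every stage, before doxycycline included. The window of Snurf (chr7:60004199-60006199, 44 CpGs, around the gene's 5' end and first exon) was methylated at 38.3% in the wild type at t=0 (95% Wilson interval 31.8 to 45.4, 193 calls). It stood at 49.3% at day 10 (43.6 to 55.1), 61.3% at day 25 (53.8 to 68.2) and 58.0% in embryoid bodies (50.6 to 65.1). Clone N5 had 27.0%, 14.0%, 16.4% and 13.7% at the same stages. Clone N9 had 11.0%, 21.4%, 24.4% and 24.01%. All 8 clone libraries lay below the lowest wild-type library, and the ranges, 11.0% to 27.0% against 38.3% to 61.3%, did not overlap. Over the 20326 gene ends tested, 59 (0.29%) had all clone libraries below all wild-type libraries and 0.167% had them all above. Wilson intervals cover counting error only, and calls from one read are not independent.

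The differences at the Snurf window were, stage by stage, -19.3 (± 11.2, SD of the 2 clones), -31.6 (± 5.20), -40.9 (± 5.70) and -39.2 points (± 7.28). By edgeR's quasi-likelihood test, with Benjamini-Hochberg adjustment over all ends, those at day 25 (adjusted p = 0.00131) and in embryoid bodies (adjusted p = 0.0270) passed 0.05. Those at t=0 (adjusted p = 0.351) and day 10 (adjusted p = 0.09997) did not. In embryoid bodies Snurf was the only one of the 6 genes called lower, where 0.0295% of all gene ends were and 0.059% were called higher. At t=0 none of the 6 genes was called by edgeR, against 0.423% of ends called lower and 0.118% higher, and Snurf alone had an unadjusted p below 0.05. With the test limited to autosomes, none of the 110 ends called at t=0 passed. At day 10 none was called either, against 0.0148% lower and 0% higher, again with Snurf alone below an unadjusted 0.05. limma on logit values called none at any of the 4 stages. Below an unadjusted 0.05 it had Ube3a alone at t=0, and Snurf alone at day 10 and in embryoid bodies. At day 25 it had Snurf, Magel2 and Mkrn3 below that value. The call in embryoid bodies was lost without those of N5 (adjusted p = 0.248) and with a clone block and flow cell term (adjusted p = 0.155), and limma gave adjusted p of 0.0622 at day 25 and 0.356 in embryoid bodies.

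**Figure D1:**
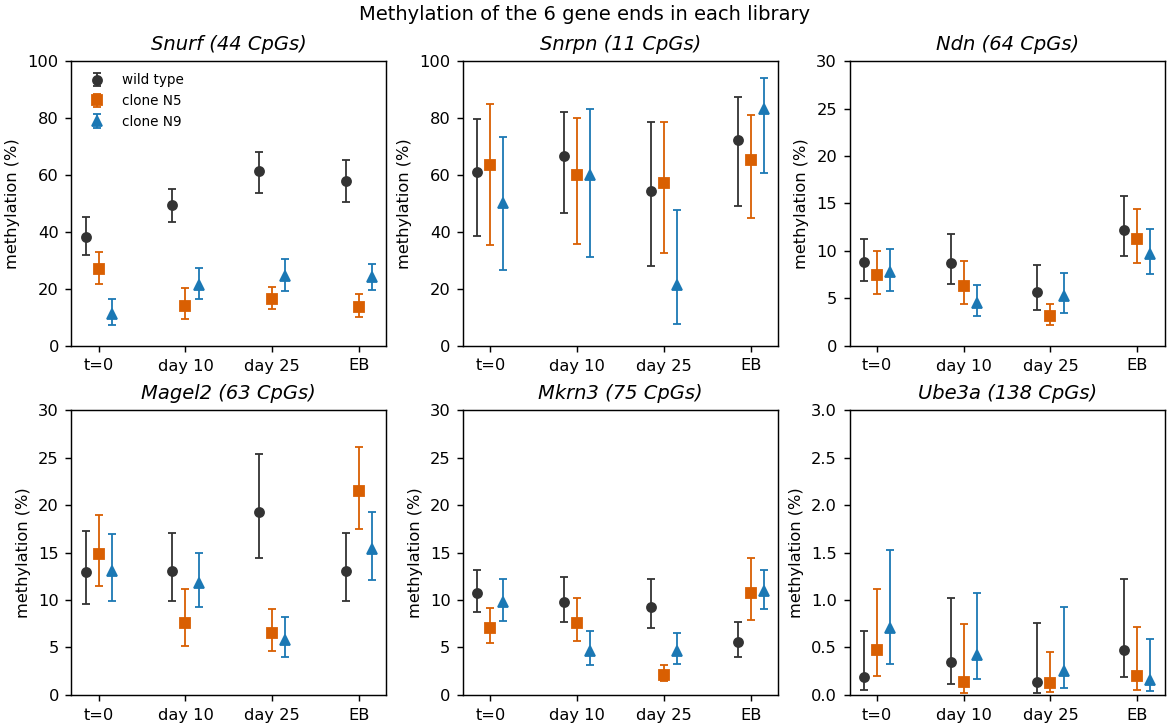
Methylation level (%) of the main end of each gene at 4 stages, with 1 point per library and 95% Wilson intervals; the vertical scales differ between panels. Snurf in the clones sits at 11.0% to 27.0%, below the wild type at every stage. Ndn, Magel2 and Mkrn3 are lower at day 25 than before doxycycline in both clones. In clone N9, Ndn is lowest at day 10, and Mkrn3 is level from day 10 to day 25.

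The low level was not limited to the window of the rule. In 500 bp bins from 3000 bp before to 3000 bp after the start, the clones' pooled level was below the wild type's in 11 of 11 bins with calls. The wild type stood between 47.7% and 90.6% per bin and the clones between 17.5% and 38.6%. Both were lowest in the first 500 bp inside the gene, which hold 26 CpGs. Over these 6 kb (chr7:60002199-60008199, 84 CpGs) the wild type had 56.8%, 53.8%, 63.8% and 71.4% at the 4 stages. The clones had 23.9% ± 6.25, 24.3% ± 0.576, 21.5% ± 3.91 and 25.1% ± 3.08 (SD, n = 2), with single libraries from 18.7% to 28.3%. This span was chosen after the levels were seen and was not tested. At the 7 CpGs of the 300-base promoter, each with 23 to 119 calls over the libraries, the pooled level was lower in the clones at 7 of 7 sites. The CpG within the GCGGCA match, at base -1, was methylated in 12 of 35 wild-type calls (34.3%, Wilson interval 20.8 to 50.8) and in 10 of 97 clone calls (10.3%, 5.70 to 17.9).

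**Figure D2:**
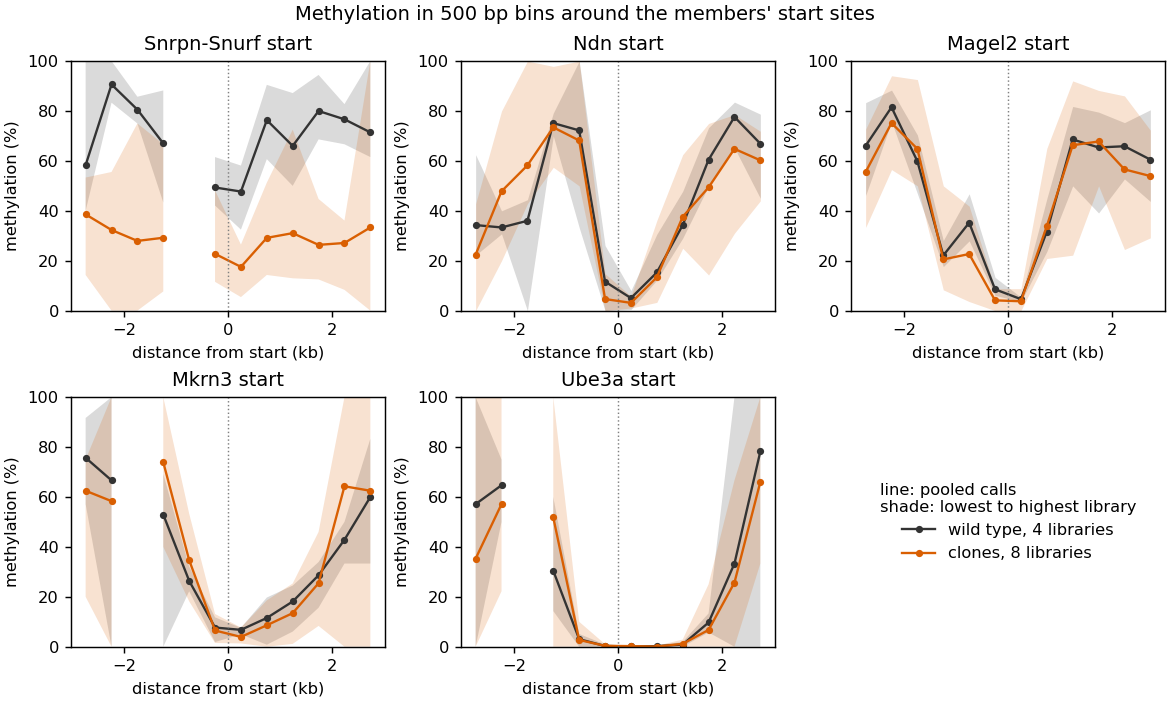
Methylation (%) in 500 bp bins against distance from 5 start sites in kb, positive inside the gene; lines pool the calls of 4 wild-type or 8 clone libraries, shades run from the lowest to the highest library, and gaps are bins without CpGs. The Snrpn-Snurf start is the one where the wild-type line stays at 47.7% or more and the clone line at 38.6% or less.

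A wider window gave the same picture with more calls. The 10 kb tile that holds the start (chr7:60000001-60010000, 95 CpGs, 369 to 652 calls per library) overlaps Snrpn, Snurf and Snhg14. The wild type had 57.5%, 55.3%, 65.2% and 74.2% there at the 4 stages. N5 had 30.8%, 27.1%, 21.9% and 27.2%, and N9 had 24.1%, 27.9%, 25.6% and 29.5%, so that the groups again did not overlap. Of all 248191 tiles tested, 0.125% had every clone library below every wild-type library and 0.00806% had the reverse. At t=0 the difference was -30.1 points (edgeR, adjusted p = 6.50e-05) and at day 25 it was -41.4 points (adjusted p = 7.87e-09). This tile was the only one of 348 domain tiles called lower in the clones at t=0, where 0.0701% of all tiles were and 1.46% were called higher. The other 347 domain tiles differed by -15.1 to 20.8 points at t=0, with a median of 2.41. At every stage none of these 347 had a lower difference than the tile of the start. limma on logit values did not call the tile at t=0 (adjusted p = 0.181) and did so at day 25.

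**Figure D3:**
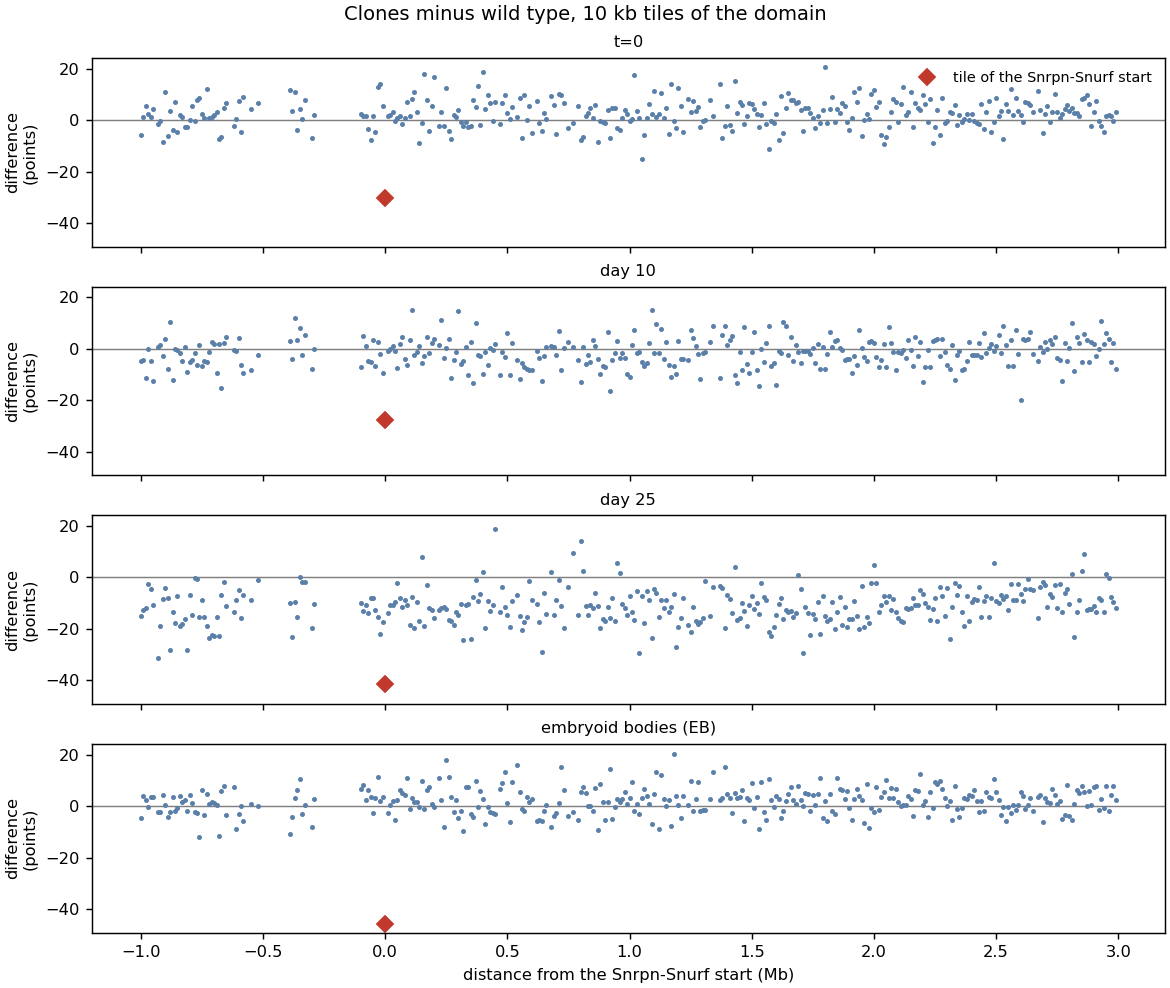
Difference in methylation, clones minus wild type in percentage points, for 348 tiles of 10 kb against distance from the Snrpn-Snurf start in Mb, one panel per stage. The tile of the start, drawn as a diamond, is at -30.1 points at t=0 and -45.8 in embryoid bodies, below all other tiles, and the rest of the domain shifts down at day 25.

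Within the clones no stage comparison called the Snurf window. The mean of the Snurf window took the values 19.003% ± 11.2, 17.7% ± 5.20, 20.4% ± 5.70 and 18.9% ± 7.28 (SD, n = 2) over the 4 stages. From t=0 to day 25 the window changed by 1.41 points (± 17.0, SD of the 2 clones), since N5 fell by 10.6 points and N9 gained 13.4 (edgeR, adjusted p = 0.854). The median change of all gene ends over that interval was -3.90 points. The step on to embryoid bodies was -1.55 points (± 1.58; adjusted p = 0.796), where the median end gained 7.22. Relative to the median end of each library (limma on centred values), the window differed by 1.05 log2 odds at day 25 (adjusted p = 0.619) and by -1.46 in embryoid bodies against day 25 (adjusted p = 0.261), so that neither passed. The 10 kb tile was called lower at day 25 against t=0 only without N9 at t=0 (adjusted p = 0.0431) or as a 5000 bp tile (adjusted p = 0.0446). It was called higher in embryoid bodies against day 25 only without N9 at day 25 (adjusted p = 0.0494) or as a 5000 bp tile (adjusted p = 0.00541). In the wild type the same window gained 22.9 points from t=0 to day 25, but the difference in change between clones and wild type did not pass (-21.5 points, adjusted p = 0.271). For the 10 kb tile this difference missed the threshold by less (adjusted p = 0.0523). It passed as a 5000 bp tile (adjusted p = 0.0379) and without N9 at t=0 (adjusted p = 0.0239), as it did without N9 at day 25 (adjusted p = 0.0428) and without either clone's embryoid bodies (adjusted p = 0.0474 each).

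Snrpn itself has 4 start sites in RefSeq. The rule placed its main end at the farthest upstream one (window chr7:60449177-60451177), which holds 11 CpGs and only 10 to 24 calls per library. There the wild type had 61.1%, 66.7%, 54.5% and 72.2%, N5 had 63.6%, 60.0%, 57.1% and 65.2%, and N9 had 50.0%, 60.0%, 21.4% and 83.3%. The wild-type and clone ranges overlapped. The gain from day 25 to embryoid bodies, 34.99 points, was 8.07 in N5 and 61.9 in N9 and passed (adjusted p = 0.0449); with clone as a block it did not (adjusted p = 0.0541), nor without N9 at day 25 (adjusted p = 0.406) or N9 in embryoid bodies (adjusted p = 0.197). The promoters of the 2 middle starts, with 4 and 3 CpGs and 13 to 51 calls, ranged from 10.5% to 85.7%.

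Ndn, Magel2 and Mkrn3 were methylated at 2.15% to 21.5% in the windows around their starts in the clones. Over these windows Magel2 and Mkrn3 fell between t=0 and day 25, and all 3 rose between day 25 and embryoid bodies. Of the 6 genes, 2 were called lower at day 25 against t=0, where 40.2% of all gene ends were and 0.0148% were higher, and 4 were called higher in embryoid bodies against day 25, where 74.6% were and 0.00492% were lower. The members' median change was -4.24 points at day 25, beside -3.90 over all ends, and 6.89 points in embryoid bodies, beside 7.22. At day 10 against t=0 edgeR and limma called none of the 6, adjusted or not, against 0.0541% of ends lower and 0.143% higher. In embryoid bodies against t=0 edgeR called none, adjusted or not, against 8.91% of ends higher and 0.0394% lower. There limma called none and had Ube3a alone below an unadjusted 0.05.

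Magel2 encodes a MAGE-family protein that acts with ubiquitin ligases in protein sorting. Its start window (63 CpGs) began at 14.9% in N5 and 13.0% in N9. Day 25 gave 6.52% and 5.79%, and embryoid bodies gave 21.5% and 15.4%. Both clones were thus below their t=0 level at day 25 and above it in embryoid bodies. The change to day 25 was -7.79 points (± 0.773; edgeR, adjusted p = 0.0110), and the gain in embryoid bodies 12.3 (± 3.81; adjusted p = 2.27e-04). The loss did not pass without N5 at t=0 (adjusted p = 0.0669), without N9 at day 25 (adjusted p = 0.0657) or with windows of 500 bp on either side (-1.79 log2 odds, adjusted p = 0.0523).

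Mkrn3, the most CpG-rich of the 3 (75 CpGs), began at 7.08% for N5 and 9.80% for N9. The levels at day 25 were 2.15% and 4.63%, and those of embryoid bodies 10.8% and 10.9%. The 2 day 25 libraries were the lowest of its clone libraries, N9 at day 10 being level with N9 at day 25 at 4.64%. The change to day 25 was -5.05 points (± 0.170; adjusted p = 0.0101) and that to embryoid bodies 7.45 (± 1.63; adjusted p = 4.56e-04). Without N9 at t=0 (adjusted p = 0.0868) or N5 at day 25 (adjusted p = 0.189) the loss did not pass. Closer to the start it was smaller, -0.61 log2 odds with 500 bp on either side (adjusted p = 0.461) against -1.49 with 1000 bp. In the 300-base promoter the clones had 3.23% and 1.47% at t=0 and 3.83% and 3.03% on day 25.

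Ndn, which encodes a growth-suppressing protein of neurons, gave t=0 levels of 7.42% and 7.73% for N5 and N9. Day 10 had 6.32% and 4.49%, day 25 had 3.10% and 5.22%, and embryoid bodies 11.3% and 9.70%, so that N9 was lowest at day 10. Its change to day 25 was -3.42 points (± 1.28) with adjusted p = 0.0536, and it passed without N5 or N9 at day 10 (adjusted p = 0.0492 and 0.0485). The gain in embryoid bodies, 6.32 points (± 2.60), passed (adjusted p = 0.00201), though not without N5 at day 25 (adjusted p = 0.0736). With 500 bp on either side it was 0.27 log2 odds (adjusted p = 0.727) against 1.51 with 1000 bp, and the first 500 bp inside Ndn stood at 2.85% on day 25 and 2.88% in embryoid bodies, with the calls of both clones pooled. After each library was centred on its median gene end, none of these stage changes passed. Relative to the median end, Magel2 and Mkrn3 then differed by -0.45 and -0.61 log2 odds at day 25, and Magel2, Mkrn3 and Ndn by 0.45, 0.58 and 0.16 in embryoid bodies, so that the directions stayed.

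Against the wild type, Magel2 and Mkrn3 were lower in the clones at day 25. With Snurf this made 3 of the 6 genes, where 10.2% of all ends were called lower and 0.0541% higher. Magel2 was at 6.15% ± 0.518 (SD, n = 2) against 19.3% (adjusted p = 0.0160), and Mkrn3 at 3.39% ± 1.75 against 9.31% (adjusted p = 0.0461). For Mkrn3 the call was lost without N5 at day 25 (adjusted p = 0.275) or without N5 or N9 in embryoid bodies (adjusted p = 0.054 and 0.0531), and for Magel2 without N9 at day 25 (adjusted p = 0.0649). Neither passed with 500 bp on either side (adjusted p = 0.203 for Magel2 and 0.278 for Mkrn3) or with limma (0.0609 and 0.109). With a clone block and a flow cell term Mkrn3 had adjusted p = 0.675. Over the 4 stages the wild type had 13.0%, 13.0%, 19.3% and 13.1% at Magel2, and 10.7%, 9.79%, 9.31% and 5.55% at Mkrn3. Its Magel2 level at day 25 stands apart from its other stages and has the fewest calls of any library (197, Wilson interval 14.4 to 25.4). From day 25 to embryoid bodies the wild type changed by -6.23 points at Magel2 and -3.77 at Mkrn3 while the clones gained. The difference in change was 18.5 points for Magel2 (adjusted p = 0.0279) and 11.2 for Mkrn3 (adjusted p = 0.0311). These were 2 of the 6 genes, where 6.07% of ends were called higher and 0.0197% lower. Neither passed with limma (adjusted p = 0.0979 and 0.108) or with 500 bp on either side (0.194 and 0.226), and Magel2 missed with 2000 bp (0.054). Neither passed without N5 at day 25 (adjusted p = 0.0527 and 0.115) or without N5 in embryoid bodies (0.0813 and 0.0615). Magel2 did not pass without N9 at day 25 (0.0676) nor Mkrn3 without N9 in embryoid bodies (0.0642). At Ndn wild type and clones both gained, 6.56 and 6.32 points. From t=0 to day 25 both had fallen there, by -3.12 points in the wild type (8.81% to 5.69%) and -3.42 in the clones. The difference in that change was -0.298 points. In the changes from t=0, edgeR called none of the 6 at day 10, adjusted or not, against 0.00492% of ends lower and 0.0295% higher. It called none at day 25, with Magel2 alone below an unadjusted 0.05, against 2.11% lower and 0% higher; limma gave the same counts. These comparisons share libraries and are not independent of each other.

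Ube3a, read over 138 CpGs with 740 to 1609 calls, was unmethylated in every library. Its levels ran from 0.135% to 0.478% in the wild type and from 0.124% to 0.706% in the clones, and the ranges overlapped. No comparison called this window. With 2000 bp on either side Ube3a was called lower at day 25 against t=0 (-2.31 log2 odds, adjusted p = 0.00155) and higher in embryoid bodies against day 25 (1.35, adjusted p = 0.0400). Of 20681 ends in that fit, 13812 were called lower and 1 higher at day 25 against t=0. In embryoid bodies against day 25, 17920 of them were called higher and 1 lower. Its 3' end (9 CpGs) was methylated at 75% to 83.3% in the wild type and 56.5% to 94.7% in the clones, and gained 29.7 points (± 5.61) from day 25 to embryoid bodies (adjusted p = 0.0143, both ends of all genes tested together). Of the 39859 ends so tested, 33749 were called higher over this interval and 1 lower.

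The 3' ends of Ndn, Magel2 and Mkrn3 were more methylated than their starts in each group. The window at the 3' end of Ndn (31 CpGs) overlaps that at its start, since the gene is short. N5 and N9 went from 42.0% and 37.2% to 17.1% and 22.2% at day 25, and embryoid bodies had 52.1% and 49.3%. The wild type had 29.0%, 33.3%, 34.7% and 65.1% at the 4 stages, so that its highest level also came in embryoid bodies. The clones' change to day 25 was -19.9 points (± 6.95; adjusted p = 0.00136), and it differed from the wild type's by -25.5 points (adjusted p = 0.0465). Mkrn3's 3' end (15 CpGs, 29 to 82 calls) went from 43.1% and 51.2% to 17.1% and 26.8% at day 25, with 48.3% and 60.3% in embryoid bodies, a change of -25.2 points (± 1.16; adjusted p = 0.00335) and then 32.3 (± 1.64; adjusted p = 2.42e-04). At the 3' end of Magel2 (25 CpGs) the change to embryoid bodies was 17.0 points (± 10.6; adjusted p = 0.0267). These 3' ends were tested with both ends of all genes together. Of those 39859 ends, 24059 were called lower at day 25 against t=0 and 4 higher. In embryoid bodies against day 25, 33749 were called higher and 1 lower. The change to day 25 was called lower in the clones than in the wild type at 3974 ends and higher at 3. The 3' end shared by Snrpn and Snurf (7 CpGs, 10 to 38 calls) had 65.8% to 79.2% in the wild type and 50.0% to 100% in the clones and was called in no comparison.

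Over the whole domain the clones lost methylation to day 25 and regained it in embryoid bodies. Median tile levels in the domain over the 4 stages were 68.8% ± 1.11, 64.4% ± 0.783, 54.3% ± 1.19 and 75.6% ± 3.05 for the clones (SD, n = 2). On the rest of chromosome 7 they were 72.7% ± 0.0115, 68.0% ± 0.126, 55.7% ± 0.930 and 80.1% ± 0.880. The wild-type domain medians were 66.0%, 66.0%, 65.4% and 73.4%. Of 348 domain tiles, 270 were called lower in the clones at day 25 against t=0, where 95.1% of all tiles were and 0.000806% were higher. At day 10 it was 4, where 9.67% of tiles were lower and 0.0342% higher. In embryoid bodies 331 were called higher than at day 25 and 85 higher than at t=0, where 99.4% and 57.1% of all tiles were; 0% and 0.0975% were lower. Against the wild type at day 25, 135 domain tiles were lower, where 74.5% of all tiles were and 0.00927% were higher. From t=0 to day 25, 108 lost more in the clones than in the wild type, where 67.4% of all tiles did and 0.00363% did the reverse. The lower shares in the domain stand beside its lower coverage, and the part of depth was not tested. The 3 domain tiles with the lowest level in the clones at t=0 hold the starts of Ube3a (5.44%), Ndn (17.3%) and Mkrn3 (19.4%). The 3 highest, at 84.9% to 86.4%, fell to 65.1% to 75.2% at day 25.

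Other genes of the region were counted beside the members. Of 12 measured neighbours, 5 were called lower at day 25 against t=0 and 9 higher in embryoid bodies against day 25, beside 40.2% and 74.6% of all ends, and their median changes were -2.22 and 4.31 points. Over the latter interval Oca2, a pigmentation gene, rose from 47.4% ± 6.46 to 82.0% ± 8.93 (SD, n = 2; edgeR, adjusted p = 2.95e-05). Against the wild type, only Atp10a, a lipid flippase gene, was called among the 12, at day 25 (52.4% ± 9.00 against 78.4%, adjusted p = 0.0221), beside 10.2% of all ends.

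Among genes that keep imprints, Zfp57 fell at day 25 from 41.2% ± 5.03 to 12.5% ± 3.95 (SD, n = 2; adjusted p = 3.42e-04) and rose to 46.6% ± 8.48 in embryoid bodies (adjusted p = 3.45e-06). Of 11 such genes, 5 fell and 8 then rose, beside 40.2% and 74.6% of all ends. Against the wild type at day 25, 4 were lower (Zfp57, Dnmt1, Dppa3 and Naa10), beside 10.2%. Their methylation is not their expression, which was not measured here.

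Snurf was set beside imprinted genes elsewhere, each read at its gene end with more CpGs. That end need not hold the egg or sperm mark, which was not checked. Of 17 measured genes on the list for a mark from the egg, 8 were called lower at day 25 against t=0. In embryoid bodies against day 25, 11 were called higher. The shares of all ends were 40.2% and 74.6%, and the median changes of the 17 were -8.00 and 8.82 points. Against the wild type, 0 of 17 were called by edgeR at t=0 and at day 10, 3 were lower at day 25 (Kcnq1ot1, Airn and Nap1l5), beside 10.2% of all ends, and 1 was lower in embryoid bodies (Kcnq1ot1), beside 0.0295%. Kcnq1ot1, the start of the antisense RNA of another imprinting centre on chromosome 7, had 45.5% to 64.7% in the wild type and 9.15% to 32.1% in the clones, again with no overlap. Peg3 and Mest, further promoters with an egg mark, overlapped between wild type (18.7% to 30.5% and 46.2% to 49.5%) and clones (5.29% to 28.0% and 25.6% to 56.9%). H19, marked from sperm, differed the other way, with 33.7% to 50.2% in the wild type and 64.7% to 87.9% in the clones. It was called higher in the clones at t=0 (adjusted p = 0.0156, not called with the test limited to autosomes), at day 25 (adjusted p = 0.00637) and in embryoid bodies (adjusted p = 0.0154). Of the 4 measured sperm-marked genes, 1 was called higher at each of these stages, beside 0.118%, 0.0541% and 0.059% of all ends. At day 10, 0 of the 4 were called higher and 1 was called lower, beside 0% and 0.0148%. Differences of the 4 from the wild type ran from -27.0 to 33.9 points at t=0. At day 10 they ran from -39.5 to 32.4 points, so the list had no common direction.

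**Figure D4:**
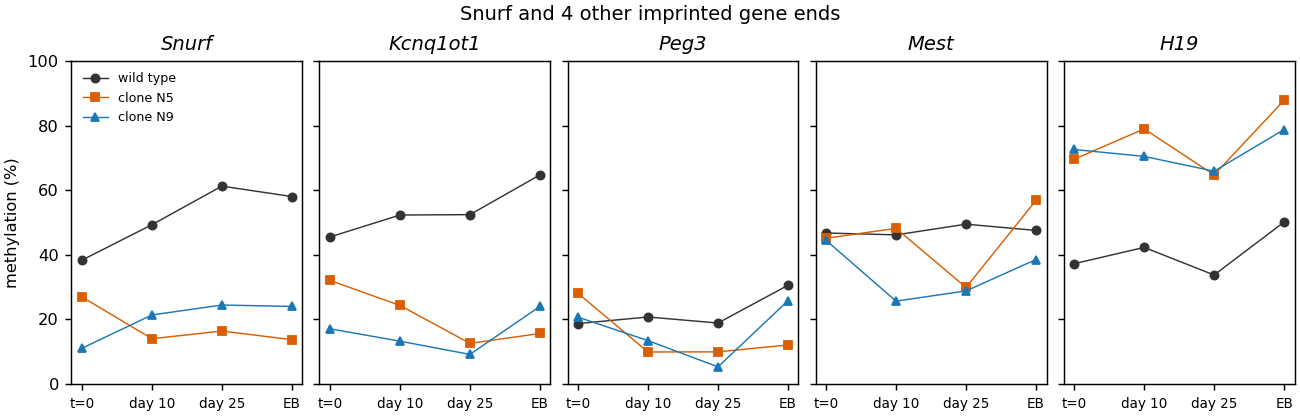
Methylation (%) of Snurf and 4 other imprinted gene ends at 4 stages, with 1 point per library joined within a line. Snurf and Kcnq1ot1 lie lower in both clones than in the wild type, H19 lies higher, and Peg3 and Mest overlap.

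By a ranking added after the levels were seen, the pattern of Snurf over the 12 libraries was nearest to that of Kcnq1ot1. Among 17227 gene ends outside the domain with at least 20 CpGs and 30 calls, its root mean square difference from Snurf was 7.47 points. The next 4 ends, Itgb7, Plekho1, Mlf1 and Ktn1, were at 12.3 to 13.1. For the far upstream end of Snrpn the nearest was Gtf2a1l at 7.30 points, and for Ndn it was Prdm12 at 0.855 points. These rankings describe likeness in level and carry no test.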

How the data were processed

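Whole-genome oxidative bisulfite sequencing was measured in 24 samples, which are 12 libraries on 2 lanes each. Per the submitters' processing notes, BWA, Picard 1.91 and build mm10 were used; no methylation caller is named. The deposited table holds, per CpG, the authors' call counts, methylated and total, in 32 value columns for 21875444 positions, 2392630 of them without calls. The 2 wild-type columns per stage are headed rep1 and rep2. They were summed as 1 library, though the headers do not say whether they are lanes or replicates. Their gene ends differed by a mean chi-square of 2.32 to 2.34, against 2.45 to 3.20 between N5 and N9.

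Calls were summed over windows of 1000 bp on either side of a gene end (no library under 10 calls, no window under 5 CpGs) and over tiles of 10000 bp (at least 30 calls). The first 3000000 bp of each chromosome were left out of gene ends and tiles. A methylation level is methylated calls over all calls, as a percent. Methylated and unmethylated counts were tested with edgeR 4.0.16 (quasi-likelihood, 8 groups, R 4.3.3) in 11 gene-end and 7 tile comparisons, with Benjamini-Hochberg adjustment within each and a threshold of 0.05. Residual degrees of freedom were 4. The alternatives were limma 3.58.1 on logit values with and without centring, a clone block, a block with a flow cell term, other windows, tiles and call minimums, both ends tested together, and leaving out each clone library. The block pairs libraries of 1 cell line; deviations of N5 and N9 at different stages correlated at -0.0532 to 0.0107 over 20326 ends. On simulated data for day 25 against t=0 with 200 of 20326 ends changed by 3 log2 odds units, 83 lowered and 88 raised ends were called, with 2 false calls. The changed ends were drawn only from well-covered ends of intermediate level, with a fixed spread and no shift of the other ends. The Ndn, Mkrn3 and Ube3a windows have lower levels and the Snrpn window has fewer calls. Recovery at such windows, of smaller changes or under a genome-wide shift was not tested.

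Named genes were both ends of the 6 members, and fixed lists for the domain, imprint maintenance and imprinted genes. Also named were the 5 most alike ends and the extreme tiles. The members and lists were chosen with earlier results of these data known. Python 3.11.15 and matplotlib 3.10.9 were used for the levels and figures. Calls from one molecule are not independent, so Wilson intervals cover counting error only.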

Additional observations from a re-analysis of the deposited data

Results flagged for a closer look

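The Magel2 start changed differently in clones and wild type from day 25 to embryoid bodies, with a difference in change of 18.5 points (12.3 in the clones, -6.23 in the wild type; edgeR quasi-likelihood test, adjusted p = 0.0279). Mkrn3 showed a difference of 11.2 points over the same interval (7.45 against -3.77, adjusted p = 0.0311). At the 3' end of Ndn the change from t=0 to day 25 differed by -25.5 points (-19.9 in the clones, 5.63 in the wild type, adjusted p = 0.0465). With both ends of all genes tested, 3974 of 39859 ends were called lower in this way and 3 higher. Of the 348 tiles of the domain, 108 lost more methylation in the clones than in wild-type cells over the same interval, beside 67.4% of all tiles. The Magel2 and Mkrn3 differences did not pass with limma (adjusted p = 0.0979 and 0.108), with 500 bp windows (0.194 and 0.226) or without N5 at day 25 (0.0527 and 0.115). Each of these results rests on 1 wild-type library per stage.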

How the results depend on the processing

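The Snurf window was lower in the clones than in the wild type at all 4 stages under all 18 alternatives. At any stage many of these fits use the same Snurf counts. None leaves out the single wild-type library on which the stage rests. The number of the 6 members called at day 25 against t=0 (2) became 0 with limma on centred values, 0 with 500 bp windows and 4 with 2000 bp windows (Ube3a, Ndn, Magel2 and Mkrn3), and was 1 to 3 with 1 clone library left out. In embryoid bodies against day 25 (4) it became 0 on centred values and 2 with 500 bp. Against the wild type it became 1 at t=0 with 2000 bp (Snurf, adjusted p = 0.0160) and 1 at day 10 with the replicate block and a flow cell term (Snurf, adjusted p = 0.0419). At day 25 (3) it became 0 with limma, 0 on centred values and 1 with 500 bp. In embryoid bodies (1) it became 0 with the block and flow cell term, 0 with limma and 0 on centred values, and was 0 to 1 with 1 library left out. The difference in change to embryoid bodies (2) became 0 with limma, 0 on centred values, 0 with 500 bp and 1 with 2000 bp, and was 0 to 2 with 1 library left out.

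Among domain tiles, the 4 called at day 10 became 1 with 5000 bp tiles and 0 with limma, and were 0 to 6 with 1 library left out. The 331 higher in embryoid bodies became 508 of more tiles with 5000 bp. The 85 higher than at t=0 were 28 to 97 with 1 library left out. The 1 tile lower than the wild type at t=0 became 2 with 5000 bp and 0 with limma. It stayed 1 with at least 10 calls and with 1 library left out. With at least 10 calls, and without either clone's embryoid bodies, 1 tile was also called higher.

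Snurf's stage changes in the clones had no stable sign (log2 odds). Day 10 against t=0 (-0.10) was 0.13 with the block and flow cell term, 0.21 on centred values, 0.052 with 500 bp, 0.13 with 2000 bp, and -0.76 to 0.80 with 1 library left out. Day 25 against t=0 (0.10) was 1.05 on centred values, -0.15 with 2000 bp and -0.56 to 1.00 with 1 library left out. Embryoid bodies against day 25 (-0.12) were -1.46 on centred values, 0.028 with 500 bp, 0.18 with 2000 bp and -0.65 to 0.34 with 1 library left out. Embryoid bodies against t=0 (-0.018) were -0.41 on centred values, 0.050 with limma, 0.088 with 500 bp, 0.024 with 2000 bp and -0.68 to 0.89 with 1 library left out. The difference in change to day 10 (-0.75) was 0.083 with 2000 bp and -1.41 to 0.16 with 1 library left out. That to embryoid bodies (0.078) was -0.84 on centred values, -0.48 with 2000 bp and -0.46 to 0.53 with 1 library left out. For the tile of the start, day 10 against t=0 was -0.18 with 5000 bp and -0.23 to 0.26 with 1 library left out, and embryoid bodies against t=0 were -0.17 to 0.32. The cause of these changes was not tested. With clone as a replicate block alone, the Snrpn call in embryoid bodies against day 25 was lost (adjusted p = 0.0541) and no other call of a member's main end changed. With 500 bp windows or at least 30 calls the far Snrpn end could not be tested. Over all gene ends, the counts behind the background shares also moved. Centring took 15166 to 0 in embryoid bodies against day 25, 8174 to 0 at day 25 against t=0, 2077 to 14 against the wild type at day 25 and 1238 to 9 for the difference in change to embryoid bodies. limma took 1820 to 1 in embryoid bodies against t=0 and 429 to 0 for the difference in change to day 25, which 2000 bp windows took to 3213. On autosomes alone, the 40 ends at day 10 against t=0, the 110 against the wild type at t=0 and the 3 at day 10 all became 0.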
